A study of Mus musculus with 8 samples.

Results

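Clustered distal regions open only in Tcf7/Lef1 knockout progenitors were examined, together with the genes whose starts lie closest to them. The regions were chosen by the peak lists themselves. Peaks of the 4 ATAC lists that overlap by at least 1 bp were merged into 134830 regions, without the mitochondrial chromosome. A region was kept if it had a peak in both knockout lists and in neither control list, if its centre lay over 1 kb from any gene start in the RNA tables, and if another such region had its centre within 25 kb. These criteria kept 2403 regions, 1.78% of all merged regions, in 1082 domains, a domain being a chain of regions in which neighbouring centres lie within 25 kb. Since the presence or absence of a peak made the choice, peak values below describe the regions and no test was made on them.

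Mouse bone marrow LSK cells (stem and progenitor cells without lineage markers, positive for Sca-1 and c-Kit) were cultured on OP9-DL1, a stromal line that displays the Notch ligand Delta-like 1. The knockout cells came from mice with floxed Tcf7 and floxed Lef1 alleles and CreER, and the control cells from mice with CreER and the wild-type genes; both were given 4-hydroxytamoxifen from day 3 to day 5, so induced Cre was present in both genotypes. On day 7, c-Kit-positive DN1 cells, negative for lineage markers, CD4, CD8 and CD25 and high for CD44, were sorted for RNA-seq (2 knockout and 2 control libraries) and for ATAC-seq (2 knockout and 2 control libraries), which marks open chromatin. The labels give neither the promoter that drives CreER nor the age of the mice, and they do not say whether replicates were separate animals or cultures, so p-values measure the spread between these libraries, which may be technical.

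Tcf7 encodes TCF1 and Lef1 encodes LEF1, HMG-box transcription factors that bind DNA at enhancers and act early in T-lineage commitment. Distal open regions include enhancers, short stretches bound by transcription factors that can lie far from the gene they act on, and enhancers of cell identity genes often lie several together. An open region is not by itself an enhancer, and the nearest gene start is only a convention for pairing a region with a gene.

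Most of the regions lay far from any annotated start, but 25 of the 2403 overlapped a RefSeq promoter window (250 bases before to 50 after a gene's start, GRCm38.p6, the same assembly as mm10) whose start is not among the starts in the RNA tables. For 10 of these the window belonged to the region's own nearest gene, at a second start, and for 15 it belonged to another gene, mostly an uncharacterised transcript. The overlapped stretches of 6 windows are shown, because such windows are the only base sequence that the RefSeq table gives within the clustered regions. Those at Gm15050 and Gm33424 lie in 2 of the 10 largest domains. The other 4 were picked after values were seen, because the gene beside them changed. All are written in the direction of the RefSeq gene, and capitals mark matches to 14 short motifs searched on both strands.
Gm15050, in the Hoxa domain, chr6:52172631-52172912, plus strand: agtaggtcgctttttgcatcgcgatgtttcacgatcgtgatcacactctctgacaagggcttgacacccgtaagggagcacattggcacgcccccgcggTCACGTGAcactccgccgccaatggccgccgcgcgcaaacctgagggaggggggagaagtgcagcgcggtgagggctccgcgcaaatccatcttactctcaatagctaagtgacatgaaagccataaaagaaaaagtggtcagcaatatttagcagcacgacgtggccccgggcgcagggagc
Gm33424, in the Nfil3 domain, chr13:52985715-52986000, plus strand: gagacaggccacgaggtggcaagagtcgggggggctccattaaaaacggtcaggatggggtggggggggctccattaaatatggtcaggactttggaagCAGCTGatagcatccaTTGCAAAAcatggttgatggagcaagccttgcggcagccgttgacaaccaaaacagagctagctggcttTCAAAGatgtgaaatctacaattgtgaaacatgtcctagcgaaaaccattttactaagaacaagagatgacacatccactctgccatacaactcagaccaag
Pparg, chr6:115421816-115421941, plus strand: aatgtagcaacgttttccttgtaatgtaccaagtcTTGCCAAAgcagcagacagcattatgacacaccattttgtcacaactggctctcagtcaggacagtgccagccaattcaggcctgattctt
Junos, beside Jun, chr4:95094725-95094862, plus strand: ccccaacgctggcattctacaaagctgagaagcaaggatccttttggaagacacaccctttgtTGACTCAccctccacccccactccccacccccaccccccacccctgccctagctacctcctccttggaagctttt
Dock9, chr14:121698368-121698522, minus strand: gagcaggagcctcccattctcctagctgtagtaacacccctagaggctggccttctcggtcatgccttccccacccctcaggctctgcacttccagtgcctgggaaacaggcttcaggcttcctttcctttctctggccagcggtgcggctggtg
Map2k6, chr11:110479170-110479363, plus strand: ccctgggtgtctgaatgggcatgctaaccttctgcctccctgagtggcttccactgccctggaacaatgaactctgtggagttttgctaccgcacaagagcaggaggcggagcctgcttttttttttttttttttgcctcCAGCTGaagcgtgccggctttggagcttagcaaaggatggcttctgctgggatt

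The Gm15050 stretch held 1 match to TCANGTGA, the E-box read by MITF and TFE factors, which 4.0% of the 32851 RefSeq windows hold in the same stretch. The Gm33424 stretch held TTGCNNAA (C/EBP factors; 10.5% of windows), CTTTGA (the TCF1 and LEF1 core; 15.4%) and CAGCTG (E proteins; 15.4%), 1 match each. The Pparg stretch held 1 match to TTGCNNAA, which 5.28% of windows hold there. The Junos stretch held 1 match to TGANTCA (Fos and Jun factors; 3.43%). The Map2k6 stretch held 1 match to CAGCTG (10.9%), and the Dock9 stretch held none of the 14 motifs. GC content ran from 45.2% in the Pparg stretch to 60.6% in the Dock9 stretch. Such matches describe the letters and are not evidence of binding.

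The domains were small. Of the 1082, 893 held 2 regions, 149 held 3, 32 held 4, 6 held 5 and 2 held 6. The median domain spanned 14144 bp, with a range of 431 to 65447 bp, and neighbouring centres lay a median of 12020 bp apart. All regions of a domain shared 1 nearest gene in 888 domains, or 82.1%. In 581 domains (53.7%) a region with a peak in all 4 lists lay between the knockout-only ones, in 105 (9.7%) a control-only region did, and in 359 (33.2%) no other merged region did. Clustering to this degree was also found among control-only regions: 28.7% of the 8366 distal knockout-only regions were clustered, and 28.2% of the 6210 distal control-only regions, which formed 766 domains. The control-only set included domains of 8 and 10 regions, larger than any knockout-only domain. At the edges of the rule, the member closest to a gene start lay 1015 bp away and the nearest knockout-only region outside lay 987 bp away. The widest accepted gap to a neighbour was 24999.5 bp and the narrowest refused one 25040 bp.

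**Figure D1:**
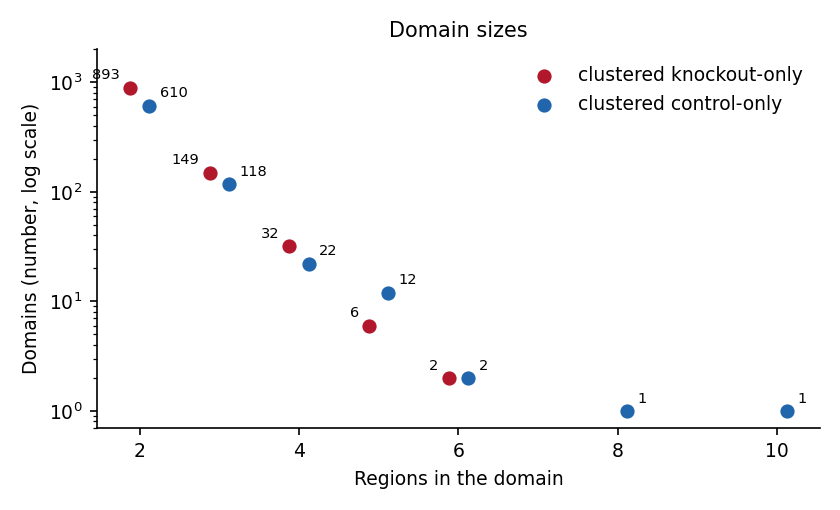
Number of domains (log scale) against the number of regions in a domain, for clustered knockout-only regions (red) and clustered control-only regions (blue), with each count printed. Domains of 2 make up 893 of 1082 knockout-only domains, and the 2 largest domains, of 8 and 10 regions, are control-only.

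Peaks in the clustered regions were weak for their lists. Their median fold enrichment over local background, the peak caller's own value, was 5.72 in knockout replicate 1 and 5.74 in knockout replicate 2. The median −log10 q was 8.94 and 9.23 in the same libraries, against 21.3 and 21.4 over those whole lists. In both knockout lists, 39 members reached a −log10 q of 20, and 245 (10.2%) fell under 5 in at least 1 of them. The isolated distal knockout-only regions were of like strength, with a median −log10 q of 8.94 and 8.85. Clustered control-only regions had medians of 10.9 and 11.2 in the 2 control libraries. Across the 2403 regions, fold enrichment in the 2 knockout lists correlated with Pearson's r of 0.66 and Spearman's rho of 0.64, a description of regions that were required to have a peak in both. Without read counts in the lists the ATAC depth cannot be given, and a region with no control peak may still have had signal under the caller's threshold.

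**Figure D2:**
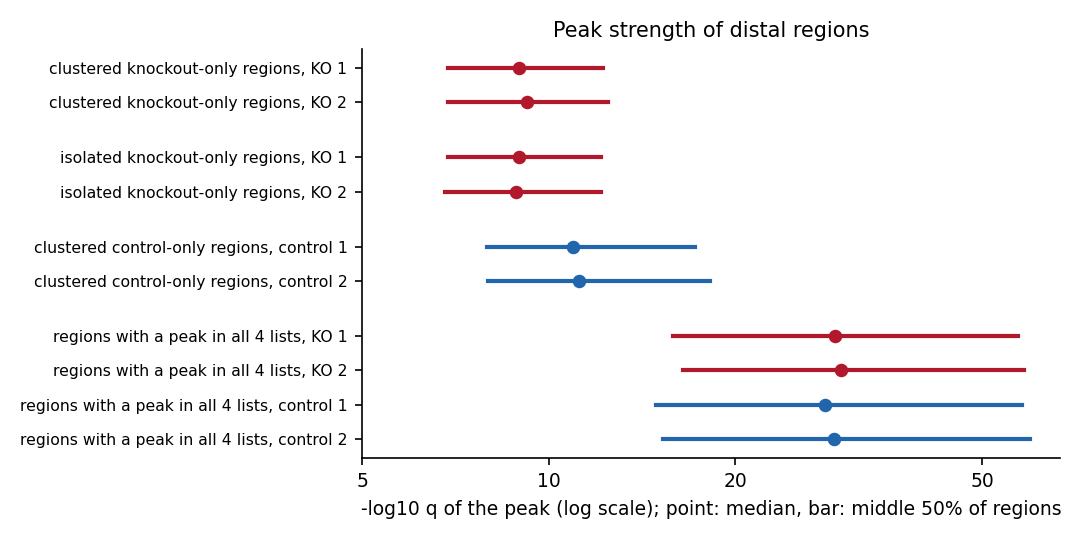
Median (point) and middle 50% (bar) of the −log10 q of distal peaks in each library, on a log scale, for clustered and isolated knockout-only regions, clustered control-only regions and regions with a peak in all 4 lists. Knockout-only medians lie between 8.85 and 9.23, below those of regions found in all 4 lists in the same libraries.

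The regions were narrow, with a median width of 231 bp against 292 bp over all merged regions, and 59.0% lay inside a gene, against 52.1% of isolated distal knockout-only regions and 53.8% of all merged regions. Their centres lay a median of 25544 bp from the nearest start. Chromosome 6 held the most, 203 regions or 2.63% of its merged regions, against 1.78% genome-wide; clustered control-only regions made up 1.75% of the merged regions of chromosome 6 and 1.3% genome-wide. The X chromosome held 25 regions, 0.902% of its merged regions. Within 10 Mb of Tcf7 lay 23 clustered knockout-only regions and within 10 Mb of Lef1 another 23, each 0.957% of the total, against 1.28% and 0.739% of all merged regions in the same intervals.

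RNA was compared with limma over the 13228 genes that averaged 1 TPM (transcripts scaled to the same total in each library) or more, on log2(TPM + 1), and genes with adjusted p under 0.05 were called. The added 1 makes changes of low genes look smaller than they are. Tcf7, the check of the labels, had 13.2 and 12.4 TPM in knockout and 519 and 510 TPM in control (log2 change −5.22, SE 0.056, adjusted p = 8.64e-06). Lef1 was low in both genotypes, at 1.46 and 1.57 TPM in knockout and 1.66 and 1.10 TPM in control, so its RNA does not check the labels. Library correlations across genes were 0.983 within each genotype and 0.943 to 0.947 between them. In bulk RNA, fewer cells of a type and less RNA per cell cannot be told apart.

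The 10 domains with the most regions, with ties broken by summed fold enrichment, lay at genes of unlike kinds. The pair with 6 regions lay at 4930581F22Rik on chromosome 9 (34998513 to 35050347), where the regions overlie Kirrel3 or St3gal4 or neither, and across Rasa3 on chromosome 8 (13640658 to 13684392). Rasa3 encodes a GTPase-activating protein for Ras and Rap. Its RNA stood at 94.1 and 94.5 TPM in knockout and 89.8 and 84.3 TPM in control, a log2 difference of 0.12 with a standard error of 0.055 (limma adjusted p = 0.15). Groups did not overlap, but the difference missed the threshold. The 6 Rasa3 regions had fold enrichments of 3.62 to 5.96 in knockout replicate 1 and 3.77 to 7.05 in knockout replicate 2.

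The domain at Bcl2, the anti-apoptotic gene on chromosome 1, held 5 regions, all inside the gene, 13.4 to 60.5 kb downstream of its start. Bcl2 had 19.5 and 31.7 TPM in knockout and 40.0 and 41.8 TPM in control. Both knockout libraries were lower, but they differed widely from each other and the change did not pass the test (log2 difference −0.70, SE 0.22, limma adjusted p = 0.053). The domain upstream of Nfil3 on chromosome 13 held 5 regions 4.5 to 52.7 kb from the start. Nfil3, a bZIP factor needed for innate lymphoid cells, fell to 7.36 and 8.49 TPM in knockout, against 16.2 and 14.8 TPM in control (log2 change −0.89, SE 0.13, limma adjusted p = 0.0051). Nfil3 is also the nearest gene of 2 clustered control-only regions, and 2 control-only regions lie within the span of the knockout-only domain itself. The strongest member there, at 52.7 kb, had a fold enrichment of 8.80 in knockout replicate 1 and 11.3 in knockout replicate 2.

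The Hoxa domain, on chromosome 6 from 52172560 to 52198424, held 5 regions with fold enrichments of 4.66 to 8.32 and 5.04 to 6.72 in knockout replicates 1 and 2. Hoxa genes encode homeobox factors of stem cells and early progenitors. The 3 nearest entries, Hoxaas2, Hoxa4 and Hoxaas3, did not pass the test. Among entries with a start within 50 kb of the domain, Hoxa9 rose to 16.9 and 15.4 TPM in knockout, against 4.48 and 4.56 TPM in control (log2 change 1.63, SE 0.13, limma adjusted p = 0.00092). Hoxa7 rose to 27.8 and 32.6 TPM in knockout, against 20.9 and 19.7 TPM in control (log2 change 0.55, adjusted p = 0.012), and Hoxa10 to 1.59 and 2.45 TPM, against 0.583 and 0.487 TPM (log2 change 0.96, adjusted p = 0.044, lost under 8 of 12 alternative settings). Leaving out control replicate 1, control replicate 2 or knockout replicate 2 ended the Hoxa7 call (adjusted p of 0.0542 to 0.0744), and leaving out any library ended that of Hoxa10 (0.0682 to 0.17). Hoxa2, Hoxa3, Hoxa5 and Hoxa6 did not pass.

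Of the other large domains, Gatb, a subunit of the mitochondrial glutamyl-tRNA amidotransferase, rose to 21.1 and 21.7 TPM in knockout, against 12.2 and 12.1 TPM in control (log2 change 0.76, SE 0.096, limma adjusted p = 0.0031). Vgll4, a cofactor of TEAD factors, fell to 40.6 and 42.5 TPM in knockout, against 59.0 and 50.3 TPM in control (log2 change −0.38, SE 0.093, adjusted p = 0.025). A domain on chromosome 7 lay inside St5, which encodes a DENN-domain protein; 4 of its 5 regions are nearest to the start of Snora3. St5 rose to 9.41 and 7.40 TPM in knockout, against 3.62 and 3.71 TPM in control (log2 change 1.002, SE 0.18, adjusted p = 0.0091), and Snora3 did not pass (adjusted p = 0.085). The Vgll4 call ended without control replicate 1 or 1 of the knockout libraries (adjusted p of 0.0718 to 0.108), and that of St5 without 1 of the control libraries or knockout replicate 1 (0.0525 to 0.0556). Sgms1, a sphingomyelin synthase, did not pass either (adjusted p = 0.087). The domain among the hair keratin genes Krt83, Krt84 and Krt85 on chromosome 15 is a case of open chromatin with next to no RNA: Krt85 was listed at 0 in all 4 libraries, and Krt83 and Krt84 at 0.564 TPM or less in each. Within the span of this keratin domain lie 2 control-only regions as well. The domains at 4930581F22Rik, Bcl2 and Vgll4 each hold 1 control-only region within their span.

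Genes with many regions were not uniformly changed. Of the genes with 6 regions, which were looked up after their values were seen, Umps, Atp5o and Sntb1 rose by 0.78, 0.76 and 1.07 on the log2 scale, Akap13 fell by 0.77, and Foxp1, St3gal1, Rasa3 and 4930581F22Rik did not pass. Umps and Foxp1 are each also the nearest gene of 2 clustered control-only regions.

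The 10 regions with the highest −log10 q in the weaker of their 2 peaks were led by one 29.6 kb upstream of Sec24b, a component of the COPII vesicle coat, with fold enrichments of 15.3 and 14.5 in knockout replicates 1 and 2. Next came a region 111.4 kb inside Plcb4, a phospholipase C gene, at 15.8 and 14.7 in the same replicates. Sec24b RNA did not pass the test. Plcb4 was higher in knockout by 0.37 on the log2 scale (limma adjusted p = 0.041), a call lost under 8 of 12 alternative settings, among them the removal of any 1 library (0.0847 to 0.161). The third region lay 8.5 kb upstream of Gem. One such region is nearest to the start of Rev1 but lies inside Aff3. Rev1, a translesion DNA polymerase, rose to 30.2 and 26.3 TPM in knockout, against 18.9 and 19.9 TPM in control (log2 change 0.51, adjusted p = 0.013; 0.0575 to 0.0744 without 1 of the control libraries or knockout replicate 1). Aff3, a nuclear factor gene of lymphoid cells, fell to 78.2 and 73.0 TPM in knockout, against 151 and 158 TPM in control (log2 change −1.02, adjusted p = 0.00042). Which gene such a region is paired with therefore sets the direction read from it. Sec24b, Rbm44 and Aff3 are also the nearest genes of 1, 2 and 2 clustered control-only regions.

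The 2403 regions had 1223 nearest genes, of which 816 were tested and 407 fell below the filter. Of the 816, 218 (26.7%) were higher in knockout, where 25.2% of all tested genes were higher, and 141 (17.3%) were lower, where 14.7% of all tested genes were lower. The median log2 change was 0.09, as it was over all tested genes. These shares lie near the background, so the calls as such say little about these genes. Rescaling by median ratios, which moves the median of all tested genes to −0.003, gave 19.7% higher and 22.1% lower among the nearest genes, beside 18.5% and 19.0% of all tested genes. Leaving out any 1 library gave 121 to 142 higher genes among the nearest (14.8% to 17.4%) and 86 to 108 lower (10.5% to 13.2%), beside 15.2% to 16.9% and 8.22% to 10.96% of all tested genes. Among genes with 4 or more clustered regions 21.6% were higher and 19.6% lower, against 26.7% and 17.3% over all 816.

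Larger changes were counted in the same way. Among the 816 genes, 57 (6.99%) were higher by at least 1 on the log2 scale, where 3.58% of all tested genes were, and 32 (3.92%) were lower by at least 1, where 3.85% were. Genes nearest to isolated distal knockout-only regions gave 5.41% and 4.62%, and genes nearest to clustered control-only regions 2.4% and 8.9%. Of the 474 genes higher by at least 1, 12.03% were nearest to a clustered knockout-only region, against 6.17% of all tested genes. They had a median of 5 distal regions each, against 3 over all tested genes. Of the distal regions nearest to them, 3.69% were clustered knockout-only ones, against 2.12% over all tested genes. Of the 816, 98 genes were nearest both to clustered knockout-only and to clustered control-only regions. Of these, 14 (14.3%) were higher and 30 (30.6%) lower, against 25.2% and 14.7% of all tested genes. The shares lie near those of all genes nearest to clustered control-only regions, 15.2% higher and 28.1% lower.

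**Figure D3:**
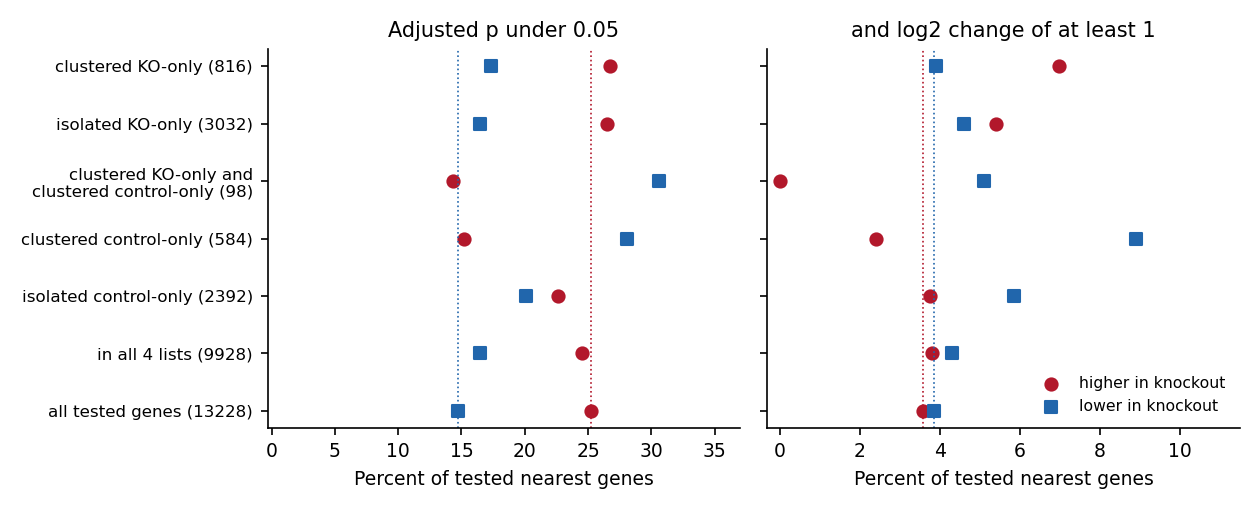
Percent of tested nearest genes higher (red circles) and lower (blue squares) in knockout, by the class of region they are nearest to, with the number of tested genes in brackets; dotted lines give the values over all tested genes. At adjusted p under 0.05 the clustered knockout-only row (26.7% and 17.3%) lies near the lines, and with a log2 change of at least 1 its share of higher genes (6.99%) lies beyond the 3.58% of all tested genes.

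The stem and progenitor list showed the greatest share of genes with clustered regions. Of its 28 genes, 10 (35.7%) were nearest to at least 1 member, against 6.17% of tested genes, and 3 (10.7%) to a clustered control-only region, against 4.41%. These genes also lie in large regulatory surroundings, with a median of 12.5 distal regions each against 3. Relative to that, 5.49% of the 510 distal regions nearest to them were clustered knockout-only ones, against 2.12% over all tested genes, and 2.35% were clustered control-only ones, against 1.54%. Of the 10, 4 rose, 4 fell and 2 did not pass. The whole list had 13 genes that rose, 9 that fell and 6 that missed the threshold. Its median log2 change was 0.35, against 0.09 over all tested genes. Over all tested genes 25.2% were called higher and 14.7% lower.

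The 4 that rose are transcriptional regulators of stem cells. Meis1, a homeobox factor, rose to 62.2 and 59.8 TPM in knockout, against 22.1 and 20.9 TPM in control (log2 change 1.46, SE 0.072, limma adjusted p = 0.00034). It has 4 regions inside the gene, 11.2 to 55.6 kb downstream of its start, among 32 distal regions of which 14 have a peak in all 4 lists. Lmo2, an adaptor that joins haematopoietic transcription factors, rose to 282 and 287 TPM in knockout, against 118 and 114 TPM in control (log2 change 1.29, SE 0.042, adjusted p = 0.00015), with regions 10.9 kb upstream and 4.6 kb downstream of its start. Both genes had non-overlapping libraries.

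Mecom, which encodes EVI1, rose to 6.20 and 6.08 TPM in knockout, against 2.04 and 1.80 TPM in control (log2 change 1.29, SE 0.18, limma adjusted p = 0.0044); its 2 regions lie 155.4 and 179.3 kb inside the gene. Hlf, a bZIP factor of stem cells, rose to 10.3 and 10.7 TPM in knockout, against 4.21 and 4.07 TPM in control (log2 change 1.16, SE 0.14, adjusted p = 0.0028). Hlf has 4 regions from 11.7 kb upstream to 40.6 kb downstream of its start, out of 12 distal regions in all. For both genes the knockout libraries were the higher ones and did not overlap the controls. Beside the Mecom member at 179.3 kb, a region with a peak in all 4 lists lies at 178.8 kb.

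The 4 that fell act both in progenitors and along lymphoid or mast cell paths. Kit, the stem cell factor receptor used in the sort, fell to 157 and 157 TPM in knockout, against 251 and 238 TPM in control (log2 change −0.64, SE 0.044, limma adjusted p = 0.00067). Its 2 clustered knockout-only regions lie 94.6 and 114.3 kb upstream. Fold enrichments in knockout replicates 1 and 2 were 7.92 and 8.72 at the nearer region and 12.3 and 10.7 at the farther. Kit is also the nearest gene of 2 clustered control-only regions. Ikzf2, which encodes the zinc finger factor Helios, fell to 20.6 and 19.8 TPM in knockout, against 39.3 and 36.3 TPM in control (log2 change −0.87, SE 0.084, adjusted p = 0.0014). Erg, an ETS factor, and Lyl1, a basic helix-loop-helix factor, fell by 0.50 and 0.39 on the log2 scale (adjusted p = 0.0026 and 0.0048). Mycn did not pass (adjusted p = 0.29).

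**Figure D4:**
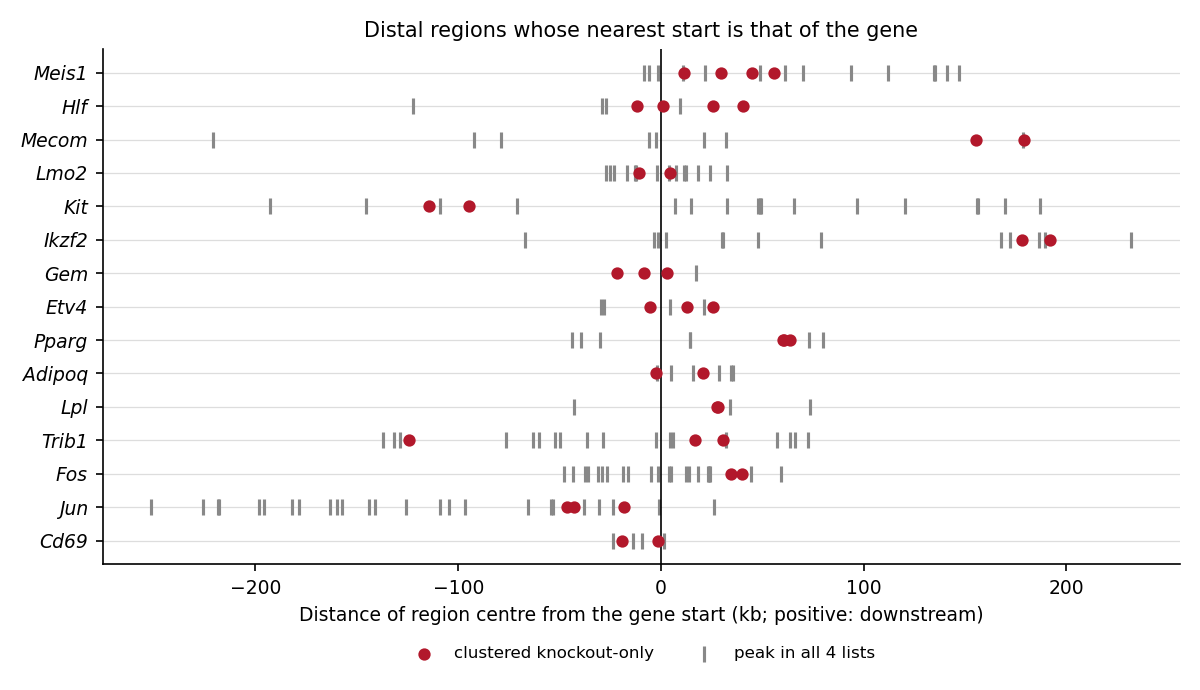
Distance in kb of distal region centres from the gene start, positive downstream, for regions whose nearest start is that of the gene; red points are clustered knockout-only regions and grey ticks are regions with a peak in all 4 lists. Members lie inside Meis1, far upstream of Kit and on both sides of the starts of Hlf, Lmo2 and Gem.

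The other blood lineage lists had 0 to 2 genes near the regions each, beside the 6.17% of all tested genes. Of 30 T-lineage genes, 2 were nearest to a clustered knockout-only region, Cd28 and Hes1 (7.41% of the 27 tested), and 5 were nearest to a clustered control-only one. Both are among the 24 of 27 tested T-lineage genes that fell, with none higher and a median log2 change of −1.67 over the list. Over all tested genes 14.7% were called lower and 25.2% higher. Cd28, the T-cell costimulatory receptor, had 0.794 and 0.518 TPM in knockout and 2.80 and 2.86 TPM in control (log2 change −1.21, SE 0.24, limma adjusted p = 0.014), with 2 clustered knockout-only and 5 clustered control-only regions. Of the neutrophil and monocyte list, Csf1r and Irf8 were near members of 28 genes (7.41% of the 27 tested); Irf8 was also the 1 such gene of the dendritic cell list. Irf8 fell by 0.23 on the log2 scale (adjusted p = 0.034) and Csf1r did not pass. Irf8 has 2 clustered knockout-only regions and is also the nearest gene of 3 clustered control-only regions. The Cd28 call ended without 1 of the control libraries or knockout replicate 2 (adjusted p of 0.0527 to 0.062), and the Irf8 call without any 1 library (0.0708 to 0.134). Of the mast cell and basophil list only Kit was near, of 20 genes (5.26% of the 19 tested). Gp9 and Trib2, of the 19 erythroid and megakaryocyte genes (15.4% of the 13 tested), did not pass. The B-lineage list and the NK and innate lymphoid list had no gene near a member.

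Genes of adipocytes and stroma were among those that rose most. Of the 17 adipocyte genes, 3 were nearest to members (23.1% of the 13 tested, against 6.17% of all tested genes) and all 3 rose. They are among the 8 of 13 tested genes of the list that rose, where 25.2% of all tested genes were higher. Of the 79 distal regions nearest to the tested adipocyte genes, 8.86% were clustered knockout-only ones, against 2.12% over all tested genes. Adipoq, which encodes adiponectin, rose to 30.3 and 25.9 TPM in knockout, against 0.873 and 1.58 TPM in control (log2 change 3.72, SE 0.21, limma adjusted p = 0.00042). Its upstream member lies 2.5 kb from the start, close to a region with a peak in all 4 lists 1.9 kb upstream. Lpl, lipoprotein lipase, rose to 73.4 and 60.9 TPM in knockout, against 16.6 and 14.7 TPM in control (log2 change 2.03, SE 0.12, adjusted p = 0.00045). Pparg, the nuclear receptor that drives adipocyte differentiation, rose to 14.8 and 13.9 TPM in knockout, against 9.76 and 7.39 TPM in control (log2 change 0.69, SE 0.16, adjusted p = 0.021). The 3 Pparg regions lie together 60.2 to 63.7 kb downstream of the start in the RNA table. The middle one overlaps the RefSeq window of a second start, in the stretch shown above, and ends upstream of that start. Leaving out control replicate 2 or 1 of the knockout libraries ended the Pparg call (adjusted p of 0.0714 to 0.1).

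Of the 27 stromal genes, 5 were nearest to members (20.8% of the 24 tested, against 6.17% of all tested genes). Acta2, Postn and Col1a2 rose and Sparc and Cyr61 did not pass. The tested stromal genes had a median of 6.5 distal regions each, against 3 over all tested genes. Of the 195 distal regions nearest to them, 3.59% were clustered knockout-only ones, against 2.12% over all tested genes. Acta2, smooth muscle actin, rose to 50.1 and 46.7 TPM in knockout, against 10.1 and 7.59 TPM in control (log2 change 2.34, SE 0.14, limma adjusted p = 0.00051). Postn, which encodes the matrix protein periostin, rose to 6.88 and 7.76 TPM in knockout, against 0.544 and 0.453 TPM in control (log2 change 2.47, SE 0.21, adjusted p = 0.001). Markers of the culture stroma moved with the genotype as a whole. The stromal list summed to 2986 and 2452 TPM in knockout and 1372 and 1395 TPM in control, with 18 of 24 tested genes higher and none lower, and Dcn at 0 in every library. Over all tested genes 25.2% were called higher and 14.7% lower. Dll1, the ligand that OP9-DL1 cells are made to display, had 671 and 534 TPM in knockout and 236 and 241 TPM in control. The adipocyte list summed to 459 and 463 TPM in knockout and 223 and 218 TPM in control, with 8 of 13 tested genes higher, none lower and Cidea at 0. The part of stromal RNA or chromatin in the regions and in the changes of their nearest genes was not tested. Of the 57 genes higher by at least 1, 5 are on the stromal or adipocyte lists and 4 on the stem and progenitor list. The stromal and adipocyte lists hold only 24 and 13 tested genes. The count of 5 therefore does not measure how many of the 57 are expressed by stroma.

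Among the other large rises, Gem, a small GTPase of the RGK family, rose to 87.6 and 83.4 TPM in knockout, against 16.2 and 17.3 TPM in control (log2 change 2.28, SE 0.073, limma adjusted p = 0.00015). Gem has 3 regions, 21.6 and 8.5 kb upstream and 3.1 kb downstream of its start, and 1 of its 8 distal regions has a peak in all 4 lists. The region 8.5 kb upstream had fold enrichments of 10.5 and 12.2 in knockout replicates 1 and 2. Etv4, an ETS factor, rose to 4.82 and 3.98 TPM in knockout, against 0.345 and 0.456 TPM in control (log2 change 1.94, SE 0.24, adjusted p = 0.0029), with 3 regions within 25.6 kb of its start. Phldb2, Scrn1 and Cd1d2 rose by 1.74, 1.89 and 1.80 on the log2 scale; Cd1d2 has a close paralog, Cd1d1, and reads may have been split between them. Of the remaining genes higher by at least 1, 5 are named here, picked after their values were seen. Gas6, a ligand of TAM receptors, rose by 1.45, Spp1, which encodes osteopontin, by 1.54, Pdgfa by 1.52 and Ednra, an endothelin receptor, by 1.67, and Alox5, the 5-lipoxygenase of leukotriene synthesis, rose by 1.73. The Pdgfa call ended without knockout replicate 2 (adjusted p = 0.0525).

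The largest falls included immediate early and activation genes. Cxcl1, a chemokine that attracts neutrophils, fell to 1.89 and 2.54 TPM in knockout, against 36.7 and 35.2 TPM in control (log2 change −3.53, SE 0.15, limma adjusted p = 0.00025), with regions 6.2 and 15.0 kb upstream of its start. Fos, a subunit of the AP-1 factor, fell to 91.5 and 88.4 TPM in knockout, against 401.1 and 391.7 TPM in control (log2 change −2.13, SE 0.042, adjusted p = 6.13e-05). Jun, its partner, fell to 306 and 312 TPM in knockout, against 652 and 637 TPM in control (log2 change −1.06, SE 0.034, adjusted p = 0.00015), although 3 knockout-only regions lie 18.4 to 46.3 kb upstream, one of them over the start of Junos. Cd69, an early activation antigen, fell to 29.8 and 33.9 TPM in knockout, against 134 and 135 TPM in control (log2 change −2.05, SE 0.076, adjusted p = 0.00019). In each of these genes the knockout libraries lay below both controls. Cxcl1, Fos and Cd69 were taken from the largest falls with libraries that do not overlap, and Jun was picked after its values were seen. That choice set their direction. Clustered knockout-only regions made up 2 of the 27 distal regions nearest to Fos, 3 of 42 at Jun and 2 of 8 at Cd69. Peaks in all 4 lists were found in 21, 25 and 4 of these distal regions.

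Trib1, a pseudokinase that directs C/EBP alpha to degradation, fell to 3.16 and 2.10 TPM in knockout, against 10.7 and 10.96 TPM in control (log2 change −1.72, SE 0.20, limma adjusted p = 0.0025); 1 of its 3 regions lies 124.5 kb upstream and the others 17.0 and 30.5 kb downstream. Clnk, an adaptor of immune receptor signalling, Colq, Mpp4 and Kbtbd11 fell by 1.92, 1.80, 1.76 and 1.72 on the log2 scale. Clnk is also the nearest gene of 3 clustered control-only regions. Lcp2, the adaptor SLP-76 of T-cell and mast cell receptors, fell by 1.05 and Lgals3, galectin-3, by 1.42; both were named after their values were seen.

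**Figure D5:**
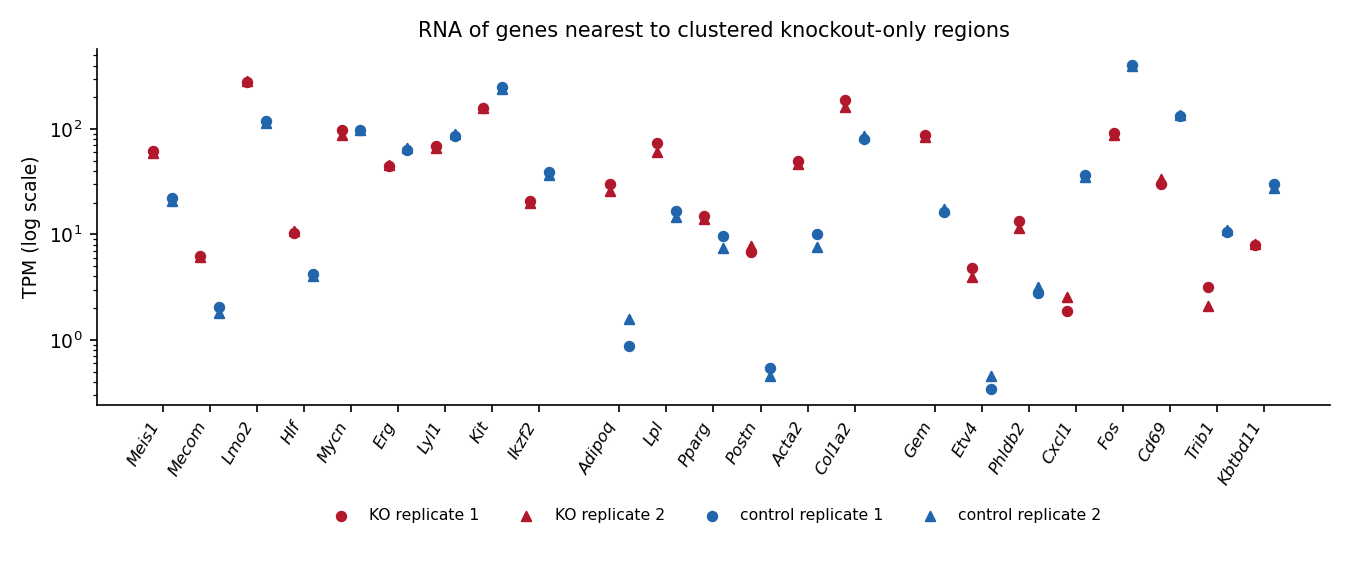
TPM in each library (log scale) of genes nearest to clustered knockout-only regions, with knockout (red) left of control (blue) and replicates 1 and 2 as circles and triangles. From left, the stem and progenitor genes, the adipocyte and stromal genes, and other genes with large changes; the groups do not overlap in Meis1, Adipoq or Fos.

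The rule for named genes also gave microRNA genes, whose values here are RNA-seq TPM over the listed gene entry and not levels of mature microRNA. For Mir5098 the entry on chromosome 11 runs from 119882289 to 119928917, far longer than a hairpin. Mirlet7i had 0.754 and 0.243 TPM in knockout and 8.55 and 8.48 TPM in control (log2 change −2.69, SE 0.25, limma adjusted p = 0.0013). The 2 regions paired with it lie 99.5 and 101.4 kb away inside Ppm1h, which did not pass the test. Mir1942 had 4.58 and 4.02 TPM in knockout and was listed at 0 in both control libraries, and lies inside Plec, itself higher in knockout by 0.25 on the log2 scale (adjusted p = 0.0098, and 0.0576 without control replicate 1). Mir5098 is listed at 5 places, whose TPM were summed, so its fall of 1.80 (adjusted p = 0.025, lost under 4 of 12 alternative settings, with 0.118 without control replicate 1 and 0.0971 without knockout replicate 2) cannot be placed at one of them. The mature sequences that RefSeq gives for Mirlet7i are shown with the seed, bases 2 to 8, in capitals, since this is the gene with the second largest fall.
mmu-let-7i-5p: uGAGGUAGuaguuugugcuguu
mmu-let-7i-3p: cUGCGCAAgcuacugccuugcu

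At the 10 genes whose own RefSeq window a region overlapped, the RNA did not move one way. Dock9, a guanine nucleotide exchange factor of Cdc42, rose to 7.88 and 9.27 TPM in knockout, against 4.64 and 3.21 TPM in control (log2 change 0.97, SE 0.21, limma adjusted p = 0.016). Map2k6, a kinase that activates p38, fell to 16.6 and 16.2 TPM in knockout, against 25.2 and 21.1 TPM in control (log2 change −0.47, SE 0.11, adjusted p = 0.025). Their regions lie 99.3 and 80.1 kb downstream of the starts in the RNA tables. Pparg rose. Trak1, Plekhg5, Prickle2, Cacnb1 and Ccser2 did not pass, and Ppef2 and 2010308F09Rik were below the filter. Leaving out control replicate 2 or 1 of the knockout libraries ended the Dock9 call (adjusted p of 0.0532 to 0.0835), and leaving out control replicate 1 or 1 of the knockout libraries that of Map2k6 (0.0852 to 0.111). The RNA tables give 1 value per gene, so use of one start against another was not measured.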

How the data were processed

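There were 4 RNA-seq and 4 ATAC-seq libraries, grouped by the sample titles. Per the submitters' processing notes, HISAT2 and StringTie were used for RNA and Bowtie2 and MACS2 for ATAC, all on mm10. The sources used here give no version, threshold, duplicate removal, strand setting or shift of ATAC reads. Per the file headers, the deposited RNA tables give TPM, FPKM and coverage per gene. TPM was the main unit, FPKM an alternative, and the authors' coverage signal served only to form a ratio to FPKM, which follows relative depth and was 2.64 and 2.63 in knockout and 2.41 and 2.12 in control. Read counts were not used here. Entries with the same symbol were summed. The deposited peak lists, 1 per library, give the authors' fold enrichment (a ratio over local background), −log10 p and −log10 q values and an integer score. The −log10 p and the score were not used. Lists held 109380 and 111007 peaks in knockout and 103009 and 105227 in control.

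Merging, distances and chains were computed with pandas 2.3.3 and NumPy in Python. Gene starts are those of the RNA tables, and a region's gene is the one with the nearest start. RNA was tested with limma 3.58.1 in R 4.3.3 on log2(TPM + 1), with genotype as the only term, an intensity trend and Benjamini-Hochberg adjustment over 13228 genes; the code was checked on simulated data. No test was made between ATAC libraries or on gene lists. The labels do not say whether replicate numbers pair the libraries. The correlation of same-numbered deviations across genes was 0.0043, so no shared shift in RNA was seen. Such a value cannot tell whether same-numbered libraries were made together. The named domains are the 10 with the most regions. Ties were broken by the higher sum over members of the lower of the 2 knockout fold enrichments. The Krt and Gatb domains were taken in this way from the 32 domains of 4 regions. The named regions are the 10 with the highest lower-of-2 −log10 q. The named genes are the floxed genes, the nearest genes of those domains and regions, the 10 largest rises and falls that passed the test with libraries that do not overlap between genotypes, without predicted models, and genes of 10 cell type lists nearest to a region. Others are marked in the text. One gene that the rule names is not reported here. The regions, lists and rules were chosen with earlier results of these data known. Promoter and microRNA sequences come from RefSeq tables of GRCm38.p6. Alternatives were another pseudocount, filter, unit, scaling or trend, a replicate block, each library left out, and other distances and peak thresholds.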

Additional observations from a re-analysis of the deposited data

How the results depend on the processing

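None of the 66 named genes that passed the test changed direction under the alternatives run. Median-ratio scaling turned the balance of calls, with 2451 higher and 2512 lower over all tested genes and 161 higher and 180 lower among the nearest genes. It moved the median log2 change to −0.003 over all tested genes and −0.0063 among the nearest ones, against 0.093 and 0.089 without it. The number of regions and domains depended on the lists required: without a peak requirement in 1 of the 4 lists, 4274 to 7020 regions in 1843 to 2876 domains met the rule. A link distance of 10 kb left 1088 regions in 526 domains, with 100 higher and 64 lower of 373 tested nearest genes. One of 50 kb gave 3890 regions, with 389 higher and 245 lower of 1427. Counting RefSeq starts as gene starts, an alternative chosen after the data were seen, left 2300 regions in 1040 domains. Leaving out each RNA library in turn, where the lone library is assumed to vary like the others, gave 2005 to 2242 higher and 1088 to 1450 lower genes over all tested genes, and 121 to 142 higher and 86 to 108 lower among the nearest genes; fewer libraries enter each such fit. With the replicate block, 3072 genes were higher and 1798 lower over all tested genes, within 1.5 times the counts without it. Whether the replicate numbers pair the libraries is not known. Of 122 named genes, 105 were tested and 66 called, and 17 of these lost their call under at least 1 alternative. Motifs, base composition and repeats across the regions were not run, since no genome was used here. ATAC depth is unknown, and 2 libraries per group limit the precision of each RNA value.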
